A study of Mus musculus with 3 samples.

Results

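A family of mouse microRNAs that is best known from the testis was examined in neural stem cells (NSCs), embryonic stem cells (ESCs) and mouse embryonic fibroblasts (MEFs). Its members were all assays named miR-463, miR-465, miR-470, miR-471, miR-547, miR-741, miR-742, miR-743, miR-871, miR-878, miR-880, miR-881 or miR-883, whatever the letter, arm or star, which gave 28 of the 709 microRNA assays, 10 on plate 1 and 18 on plate 2. The assays belonged to 17 hairpins. The rule used names alone and no measured value.

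The screen was a quantitative RT-PCR profile of total RNA from 1 sample of each cell type, meant to find microRNAs that are high in NSCs. The NSCs came from fetal mouse forebrain and were expanded on Matrigel, a basement membrane gel, in serum-free medium with growth factors, while the ESCs and MEFs served as controls. The labels name no genotype, strain or treatment for any of the 3 samples. The design text states that equal amounts of total RNA were pooled before profiling but not what was pooled, so the number of cultures behind each sample is unknown. Small RNAs were tailed with poly-A, copied from an oligo-dT adaptor and amplified with SYBR Green, and each sample was run 2 times. These runs are technical repeats of 1 sample, so no test across samples was possible and no p-value is given. The readout is the Ct, the number of PCR cycles until product is seen, and a Ct later by 1 cycle stands for about 2 times less RNA. In bulk RNA, fewer cells that express a microRNA and less RNA per cell cannot be told apart.

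MicroRNAs are cut from a hairpin whose arms, 5p and 3p, can each give a mature RNA of about 22 bases, and bases 2 to 8 of it, the seed, pair with target transcripts. The family lies on the X chromosome between the genes Slitrk2 and Fmr1, has many near copies that change fast in evolution, and is known mainly from male germ cells, where several members remain expressed while the X chromosome is silenced in meiosis. miR-470 is also known in mouse ESCs, where during differentiation it targets the coding sequences of the pluripotency factors Nanog and Oct4. miR-471 has been studied in Sertoli cells, the supporting cells of the testis, and miR-743a as a regulator of the mitochondrial enzyme Mdh2.

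All 28 assays matched a hairpin of the RefSeq annotation of the mouse genome (GRCm38.p6), and all hairpins lay on the minus strand of chromosome X. The 18 copies of 16 hairpins sat within 62.4 kb, at chrX:66776757-66839125, in the order miR-743a, miR-743b, miR-742, miR-883a, miR-883b, miR-471, miR-741, miR-463, miR-880, miR-878, miR-881, miR-871, miR-470 and then the miR-465 copies. The hairpin of miR-547 lay 1149 kb farther on, at chrX:67988374-67988451, beside that of miR-201. Of the assay names, 14 state the arm and equal a RefSeq mature name, 7 for 3p and 7 for 5p. The other 14, 4 of them star assays, could be matched by hairpin only, and a star marks the strand once held to be the minor one without saying which arm it is.

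The near copies are shown first because they set what the assays can tell apart. The mature miR-465 sequences are given with the seed in capitals, 5′ to 3′, from RefSeq. The 3p arm is the same 22 bases in miR-465a, miR-465b and miR-465c, so the 3 assays named for it address 1 sequence. The 5p arms share a seed, with miR-465b-5p and miR-465c-5p differing by U13C alone (positions counted from 1 at the 5′ end, the base of the first-named sequence first). miR-465a-5p differs from miR-465b-5p by C13U, A14G and G20C.
miR-465a-3p: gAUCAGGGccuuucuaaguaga
miR-465a-5p: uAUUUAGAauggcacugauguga
miR-465b-5p: uAUUUAGAauggugcugaucug
miR-465c-5p: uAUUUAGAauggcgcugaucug

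Seeds were also shared by other members. The 3p arms of miR-743a and miR-743b differ by C9U, A12U and G18A, all outside the seed, and those of miR-883a and miR-883b by G12U. The 5p arms of miR-743a and miR-871 have the same seed AUUCAGA.
miR-743a-3p: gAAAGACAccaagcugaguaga
miR-743b-3p: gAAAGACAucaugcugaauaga
miR-883a-3p: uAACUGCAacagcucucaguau
miR-883b-3p: uAACUGCAacaucucucaguau
miR-743a-5p: uAUUCAGAuuggugccugucau
miR-871-5p: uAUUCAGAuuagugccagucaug

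The sequences of the microRNAs with the earliest Ct complete the set. For miR-470 and miR-547 both arms are given, since the assay names do not state which of them was measured. Their seeds are shared with no other member.
miR-470-5p: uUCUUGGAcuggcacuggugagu
miR-470-3p: aACCAGUAccuuucugagaaga
miR-547-5p: cACUUGAGgauguaccaccca
miR-547-3p: cUUGGUACaucuuugagugag
miR-871-3p: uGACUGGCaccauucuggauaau
miR-743b-5p: uGUUCAGAcugguguccauca

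The 3 samples were first checked against microRNAs typical of their labels. All 3 NSC markers (miR-9, miR-9* and miR-219), all 7 ESC markers of the miR-290 and miR-302 clusters and all 5 MEF markers were highest in the cell type they mark. In ESCs the 5 MEF markers stood at a delta Ct of 0.78 to 3.79, against -0.32 to 2.58 in MEFs and 3.99 to 12.08 in NSCs, and the part of this in the values below was not tested. All of them but miR-214 (3.45 in ESCs, 2.40 in MEFs and 3.99 in NSCs) were nearer to MEFs than to NSCs. Delta Ct is the mean Ct of an assay minus the mean Ct of the reference RNAs U6, RNU43 and U1 of the same plate and sample. The reference mean came 1.96 and 2.09 cycles later in ESCs than in NSCs on plates 1 and 2, and 0.415 and 0.322 cycles later in MEFs. In ESCs, RNU43 of plate 1 rests on 1 well.

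The family was detected late and with many empty wells in all 3 cell types. A mean Ct of at most 32 was reached by 5 members in NSCs (17.9%), 2 in ESCs (7.14%) and 5 in MEFs (17.9%), whereas the shares among all 709 assays were 63.6%, 53.9% and 72.6%. The median Ct of the members measured was 33.5 in NSCs, 35.2 in ESCs and 33.5 in MEFs. No Ct was recorded in 29 of their 168 wells (17.3%), against 176 of 4254 wells (4.14%) over all assays. A further 6 wells had a Ct above 40, although the labels give 40 cycles. Runs of 1 sample also lay farther apart at these levels, with a median gap of 0.443, 0.825 and 0.473 cycles in NSCs, ESCs and MEFs against 0.222, 0.272 and 0.192 cycles over all assays. A late Ct or an empty well means that the RNA was low or not detectable in that well, not that it was absent.

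**Figure D1:**
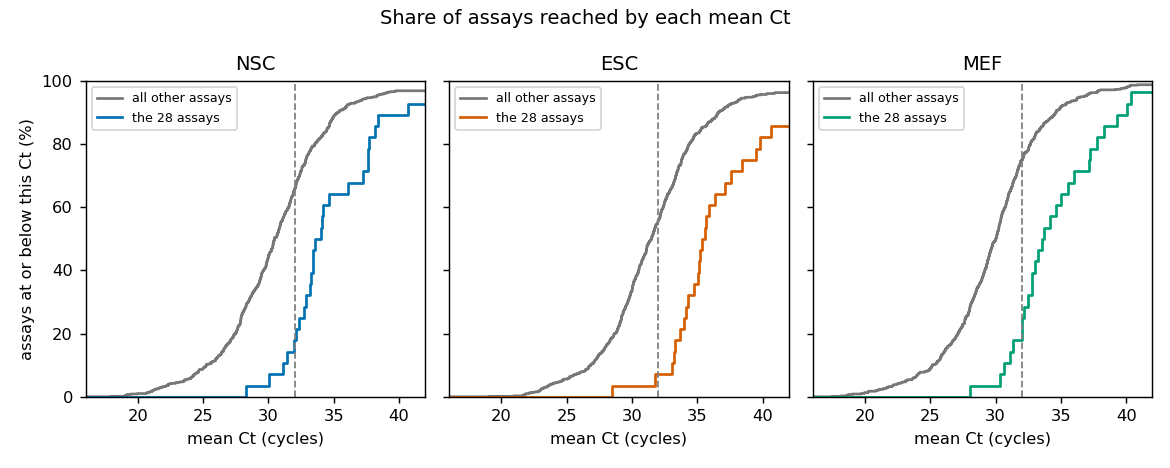
Cumulative share of assays (%) reached by each mean Ct (cycles, horizontal axis) in NSCs, ESCs and MEFs, for the 28 assays (coloured) and for all other assays (grey), with unmeasured assays kept in the total. The coloured lines run to the right of the grey lines, and at the dashed line (Ct 32) stand at 17.9%, 7.14% and 17.9% where the other assays stand at 65.5%, 55.8% and 74.9%. The MEF values shown are the deposited ones.

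In the deposited values, other microRNAs known from germ cells, or encoded elsewhere on the X chromosome, were detected earlier. Of 7 assays of miR-34b, miR-34c and miR-449, microRNAs of the testis and of ciliated epithelia encoded elsewhere, 6 were at a Ct of at most 32 in NSCs, 4 in ESCs and 7 in MEFs. The shares of the 56 other X-linked assays were 64.3%, 33.9% and 64.3%. The neighbours of miR-547 outside the rule, miR-201 and miR-509, lie apart from the other members. None of their 3 assays was at a Ct of at most 32 in any sample. Assays differ in how well they amplify, so the position of an assay on the Ct scale is a description and not a ranking of RNA amounts.

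**Figure D2:**
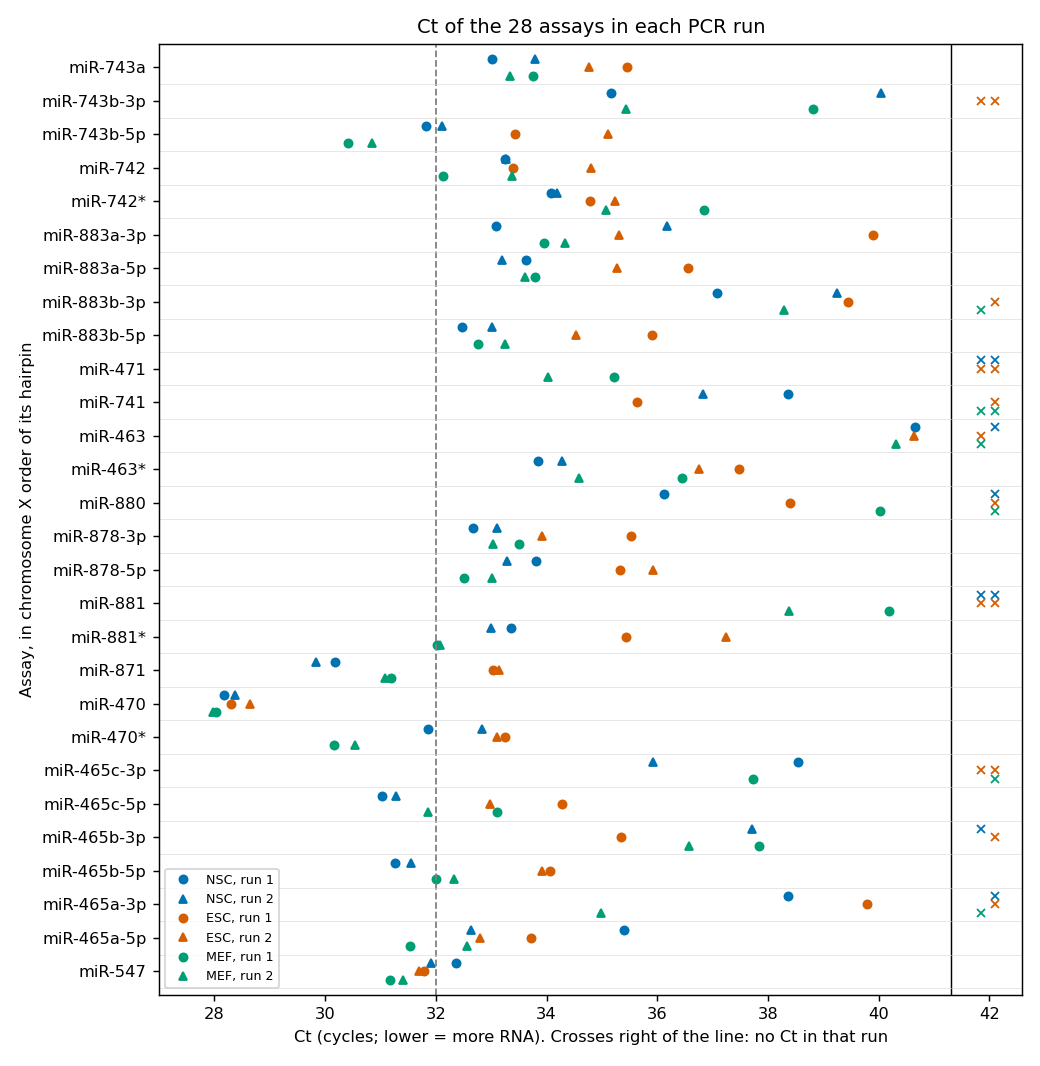
Ct (cycles) of the 28 assays in each of 2 PCR runs (circle, run 1, and triangle, run 2) of NSCs, ESCs and MEFs, ordered along chromosome X, with crosses at the right for runs without a Ct and a dashed line at Ct 32. miR-470 stands alone at 27.97 to 28.64 in all samples, while miR-471 and miR-881 have a Ct in MEFs alone.

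miR-470 was the member with the earliest Ct in every sample, and the only one at a Ct of at most 32 in all 3. Its Ct was 28.17 and 28.36 in NSCs, 28.31 and 28.64 in ESCs, and 28.03 and 27.97 in MEFs. Before scaling, the 6 values lay within 1 cycle and the NSC and ESC runs overlapped. By delta Ct, 4.34 in NSCs, 2.58 in ESCs and 3.66 in MEFs, it ranked 197 of 686, 134 of 680 and 190 of 700 microRNAs measured. The level relative to the reference RNAs was thus highest in ESCs and lowest in NSCs, with runs that did not overlap. A log2 fold is the difference between 2 delta Ct values, and the error given with it combines the SDs of the runs and covers PCR error only. The log2 fold of miR-470 was -1.76 ± 0.19 for NSCs over ESCs, -0.68 ± 0.10 for NSCs over MEFs and 1.08 ± 0.17 for ESCs over MEFs, all beyond the PCR error but under 4-fold. For NSCs over ESCs miR-470 passed 4-fold and was called lower with U6 alone (-2.39) and with U1 alone (-2.10) as the reference, and stood at -0.79 with RNU43 alone and -1.09 with the mean of the early microRNAs, those at a Ct of at most 32 in every sample. The order of NSCs and MEFs turned with RNU43 alone (0.52) and with the early microRNAs (0.14), and that of ESCs and MEFs with a second set of MEF Ct values described further on (-0.52), with which miR-470 was called lower in NSCs than in MEFs (-2.28).

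The other assay of the same hairpin, miR-470*, was detected later. The runs gave 31.85 and 32.83 in NSCs, 33.24 and 33.10 in ESCs, and 30.16 and 30.54 in MEFs. MEFs had the earliest Ct in both runs and, after scaling, runs apart from those of the other cells. The log2 fold was -1.26 ± 0.50 for NSCs over ESCs, -2.32 ± 0.53 for NSCs over MEFs and -1.06 ± 0.20 for ESCs over MEFs. By the deposited values, ESCs therefore had the highest level of miR-470 but MEFs that of miR-470*. With the second set of MEF Ct values described further on, MEFs were highest for both assays. The log2 folds of miR-470 and miR-470* were then -0.52 and -1.19 for ESCs over MEFs, and -2.28 and -2.45 for NSCs over MEFs. With the deposited values, the log2 folds of the 2 assays differed by 2.13 ± 0.26 for ESCs over MEFs and by 1.63 ± 0.53 for NSCs over MEFs. For NSCs over ESCs they differed by -0.50 ± 0.53, within the PCR error. The assays are on different plates, each with its own reference wells. With RNU43 alone the log2 fold of miR-470* for NSCs over ESCs was -0.28.

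miR-547, which is encoded apart from the rest, was the only other member at a Ct of at most 32 in ESCs. Its Ct was 32.37 and 31.92 in NSCs, 31.79 and 31.70 in ESCs, and 31.17 and 31.41 in MEFs. On the Ct scale the samples lay close together, and after scaling ESCs were highest and NSCs lowest with runs that did not overlap, the same order as for miR-470. The log2 fold was -2.36 ± 0.23 for NSCs over ESCs, which is 5.12 times lower, -1.27 ± 0.26 for NSCs over MEFs and 1.09 ± 0.13 for ESCs over MEFs. Over the single reference RNAs the value for NSCs over MEFs ran from -1.95 with U1 to -0.07 with RNU43.

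miR-871, whose hairpin lies 3446 bases from that of miR-470, had another order. It was detected at 30.18 and 29.84 in NSCs, 33.03 and 33.13 in ESCs, and 31.18 and 31.09 in MEFs. NSCs had the earliest Ct and ESCs the latest, with no overlap between runs. Part of the distance to ESCs is shared by the reference RNAs, and the log2 fold was 0.98 ± 0.18 for NSCs over ESCs, 0.80 ± 0.18 for NSCs over MEFs and -0.18 ± 0.07 for ESCs over MEFs. The rank of miR-871 by delta Ct was 297 in NSCs, 452 in ESCs and 448 in MEFs. The size of these folds depended on the reference, from 0.48 with U1 alone to 1.96 with RNU43 alone for NSCs over ESCs and from 0.13 to 1.92 for NSCs over MEFs. The fold over ESCs turned to -0.10 with later wells set to Ct 32, which moves both ESC wells earlier and leaves the NSC wells unchanged. With the second set of MEF values the fold over MEFs turned to -1.68, and miR-871 was called lower in ESCs than in MEFs (-2.66).

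miR-743b-5p was the remaining member with an early Ct in MEFs. The Ct was 31.83 and 32.12 in NSCs, 33.43 and 35.11 in ESCs, and 30.41 and 30.85 in MEFs. Runs of MEFs were the earliest, also after scaling, while those of NSCs and ESCs overlapped after scaling. The log2 fold was -1.66 ± 0.26 for NSCs over MEFs, -1.87 ± 0.87 for ESCs over MEFs and 0.21 ± 0.85 for NSCs over ESCs.

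The 5p arms of the miR-465 hairpins, which share a seed, gave values in every well. miR-465b-5p was detected at 31.26 and 31.55 in NSCs, 34.06 and 33.91 in ESCs, and 32.01 and 32.34 in MEFs. miR-465c-5p was at 31.03 and 31.27 in NSCs, 34.28 and 32.98 in ESCs, and 33.11 and 31.85 in MEFs. For these near identical RNAs, NSCs had the earliest Ct and the 4 NSC wells lay within 0.521 cycles, but the folds were small. For NSCs over ESCs the log2 fold was 0.62 ± 0.16 for miR-465b-5p and 0.52 ± 0.66 for miR-465c-5p. Over MEFs it was 0.35 ± 0.22 and 0.92 ± 0.64. miR-465a-5p stood apart in NSCs, where its runs were at 35.40 and 32.63, against 33.73 and 32.79 in ESCs and 31.54 and 32.57 in MEFs. Its log2 folds of -2.72 ± 1.46 for NSCs over ESCs and -2.38 ± 1.48 for NSCs over MEFs are less than 2 errors from 0, because the NSC runs lay 2.77 cycles apart.

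The shared 3p sequence of miR-465 showed how far 3 assays of 1 RNA can disagree at this depth. Of 6 wells per sample, 4 gave a Ct in NSCs (35.92 to 38.55), 2 in ESCs (35.35 and 39.80) and 4 in MEFs (34.98 to 37.83). The ranges of these wells overlapped between all cell types. For ESCs over MEFs, the log2 fold was 3.39 ± 0.63 by the miR-465b-3p assay, with 1 ESC well and an error from the MEF runs alone. By the miR-465a-3p assay it was -3.27, from 1 well in each sample. The spread between these 2 assays of 1 sequence was thus 6.67 on the log2 scale. It was 3.79 for NSCs over ESCs, also from 2 assays, and 3.88 for NSCs over MEFs, from 3. Between miR-465b-5p and miR-465c-5p the same spread was 0.67, 0.10 and 0.56.

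Where the names state the arm, the 5p assay was mostly the earlier of a pair. It came first in 6 of 7 hairpins in NSCs, by 1.22 to 6.30 cycles, in 4 of the 5 measured in ESCs, by 1.37 to 6.54 cycles, and in 7 of 7 in MEFs, by 0.448 to 6.49 cycles. The exception was miR-878, whose 3p assay was earlier by 0.659 cycles in NSCs and 0.895 cycles in ESCs. Of the 42 wells of 5p assays none was empty, while 12 of the 42 wells of 3p assays (28.6%) were. The miR-465 hairpins make up 3 of the 7 pairs, and their 3p assays address 1 sequence, so these pairs are not separate cases. Those 3p assays gave a Ct in 4, 2 and 4 of 6 wells in NSCs, ESCs and MEFs. Primers differ between arms, and whether the order reflects the RNA or the assay was not tested.

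Among star pairs, the assay without a star was earlier for miR-470 and miR-742 and later for miR-463 and miR-881. miR-463 gave 1 well in each sample, at 40.66, 40.64 and 40.32, whereas miR-463* was measured in all wells, at 33.85 and 34.28 in NSCs, 37.47 and 36.76 in ESCs, and 36.45 and 34.59 in MEFs. For miR-463* NSCs had the earliest runs, but after scaling those of NSCs and MEFs overlapped. The log2 fold of NSCs was 0.96 ± 0.42 over ESCs and 1.13 ± 0.96 over MEFs. miR-881 had a Ct in MEFs alone, at 40.18 and 38.38, but miR-881* was at 33.35 and 33.00 in NSCs, 35.44 and 37.24 in ESCs, and 32.02 and 32.07 in MEFs. Runs of MEFs for miR-881* were the earliest, also after scaling, with a log2 fold of -1.46 ± 0.18 for NSCs over MEFs and -2.53 ± 0.90 for ESCs over MEFs. The Ct of miR-742 was 33.25 and 33.26 in NSCs, 33.39 and 34.81 in ESCs, and 32.13 and 33.38 in MEFs, and that of miR-742* was 34.08 and 34.19, 34.79 and 35.24, and 36.85 and 35.07. miR-742* had its latest mean Ct in MEFs and miR-742 its earliest. The log2 fold for ESCs over MEFs was 0.42 ± 0.95 for miR-742 and 2.71 ± 0.92 for miR-742*, a difference of -2.29 ± 1.32, which is within 2 errors.

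The assays of miR-878, miR-883 and miR-743a were called in no comparison. miR-878-5p was at 33.81 and 33.29 in NSCs, 35.32 and 35.92 in ESCs, and 32.50 and 33.01 in MEFs, with MEFs highest after scaling and a log2 fold of -1.12 ± 0.36 for NSCs over MEFs. For miR-878-3p that log2 fold was 0.05 ± 0.32. miR-883a-5p and miR-883b-5p, neighbours with different seeds in this arm, had log2 folds of 0.42 ± 0.68 and 0.39 ± 0.74 for NSCs over ESCs and of -0.03 ± 0.23 and -0.06 ± 0.36 for NSCs over MEFs. Their 3p arms, which share a seed, were the less precise assays, with runs of miR-883a-3p at 33.08 and 36.19 in NSCs and at 39.90 and 35.31 in ESCs. miR-743a, at 33.02 and 33.80 in NSCs, 35.45 and 34.76 in ESCs and 33.76 and 33.34 in MEFs, had log2 folds of -0.39 ± 0.52, -0.19 ± 0.44 and 0.20 ± 0.40 for NSCs over ESCs, NSCs over MEFs and ESCs over MEFs.

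At the other end, 8 members were later than a Ct of 35 or without a value in all 3 samples. These were miR-743b-3p, miR-883b-3p, miR-741, miR-463, miR-880, miR-881, miR-465b-3p and miR-465c-3p. 5 members were not measured everywhere. miR-471 and miR-881 had a Ct in MEFs only, miR-741 lacked one in MEFs, and miR-743b-3p and miR-465c-3p lacked one in ESCs. miR-471 gave 35.22 and 34.03 in MEFs. miR-880 gave 1 well in each sample, at 36.12 in NSCs, 38.40 in ESCs and 40.03 in MEFs.

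The comparison of NSCs with ESCs asked which members differ between neural and pluripotent stem cells. None of the 24 members measured in both was called higher in NSCs (2.95% of all microRNAs were) and 1, miR-547, was called lower (14.9% of all). A call needed at least 4-fold difference, separate runs by delta Ct and, in the sample with more RNA, a mean Ct no later than 32. By fold alone, 4 members were at least 4-fold lower (16.7%, against 20.2% of all microRNAs), namely miR-465b-3p, miR-741, miR-465a-5p and miR-547, and none was higher (4.57% of all). The first 3 had a Ct above 32 in both samples, and miR-741 rested on 36.8 and 38.4 in NSCs against 1 ESC well at 35.6. The median log2 fold of the members was -0.32, close to that of all microRNAs, -0.42. Of the 24, 14 were within 2-fold, and 12 of the 20 with an error were within 2 errors of 0. The call of miR-547 was lost with RNU43 alone (-1.38) and with the mean of the early microRNAs (-1.69) as the reference.

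In the comparison of NSCs with MEFs, none of 25 members was called higher in NSCs (1.75% of all microRNAs were) and 1, miR-470*, was called lower (13.9% of all), at 4.98 times. By fold alone, miR-880 was higher (1 of 25, or 4%, against 2.34% of all) and 3 members were lower (12%, against 16.2%), miR-465a-3p, miR-465a-5p and miR-470*. The value of miR-880, 3.59, comes from 1 well in each sample. The median log2 fold was -0.68, against -0.48 for all microRNAs, and 15 of the 25 were within 2-fold. The call of miR-470* was lost with RNU43 alone (-1.20), with the mean of the early microRNAs (-1.91) and with later wells set to Ct 32 (-1.90). With the second set of MEF Ct values described next, 20 of 26 members were called lower in NSCs, with a median log2 fold of -5.25. Over all microRNAs that set gave 78 called lower and 55 called higher, together 19.5%, and a median of 0.36.

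ESCs and MEFs, the controls, gave no called member, whether higher in ESCs (5.3% of all microRNAs were) or lower (3.24%), of 23 measured in both. By fold alone, 3 were higher in ESCs (13.0%, against 8.25% of all), miR-880, miR-465b-3p and miR-742*, and 2 were lower (8.70%, against 6.33%), miR-465a-3p and miR-881*. All 5 had a mean Ct above 32 in both samples. The median log2 fold was 0.20, against -0.11 for all microRNAs. These 3 comparisons share samples in pairs, so their counts are not independent of each other. With the second set of MEF Ct values, 16 of 24 members were called lower in ESCs, with a median of -5.39. Over all microRNAs 29 were then called lower and 93 higher, together 18.0%, and the median was 0.86.

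**Figure D3:**
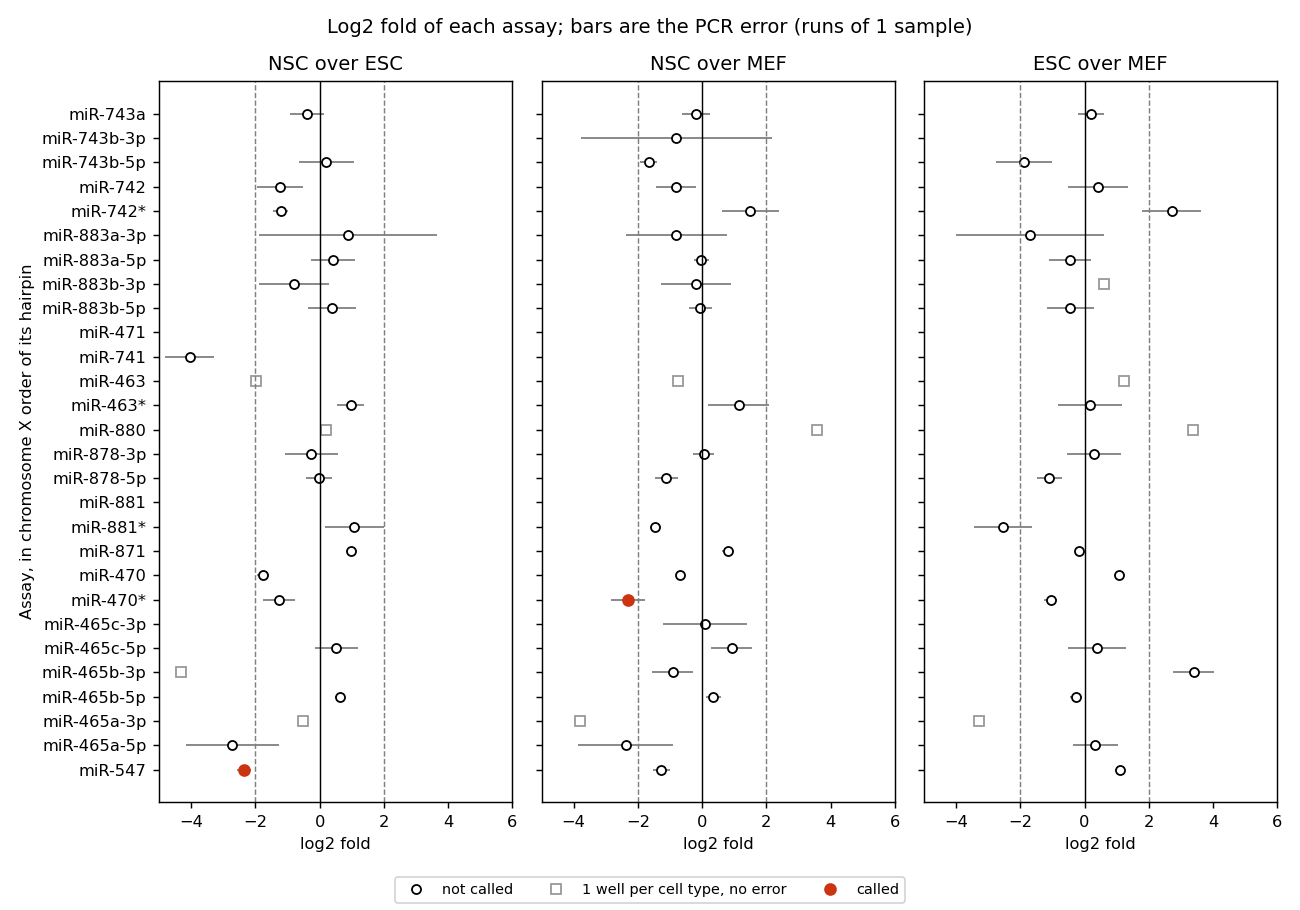
Log2 fold of each of the 28 assays for NSCs over ESCs, NSCs over MEFs and ESCs over MEFs, in chromosome X order, with bars for the PCR error (from runs of 1 sample per cell type), squares where each cell type had 1 well, and dashed lines at 4-fold. miR-547 (-2.36, NSCs over ESCs) and miR-470* (-2.32, NSCs over MEFs) are the only called values.

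Over the 23 members measured in all 3 samples, no single order of the cell types prevailed in the deposited values. An order was counted even where runs overlapped or a sample had 1 well, and orders of all microRNAs were not counted. Of the folds with an error, 12 of 20 for NSCs over ESCs were within 2 errors of 0. The same held for 15 of 22 for NSCs over MEFs and 10 of 19 for ESCs over MEFs. By delta Ct, ESCs had the highest level in 10 (followed by MEFs in 8 and by NSCs in 2), MEFs in 8 (followed by ESCs in 3 and by NSCs in 5) and NSCs in 5 (followed by ESCs in 3 and by MEFs in 2). Even the neighbours miR-470 and miR-871 had different orders, with ESCs highest for the first and NSCs for the second. With the second set of MEF Ct values, MEFs were highest for both.

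The second set of MEF Ct values is in a supplementary table, where it stands in place of the deposited MEF values. None of the 1351 MEF wells measured in both sets had the same Ct within 0.001 cycles, and none of the 49 wells of the family did. In the second set 25 of the 28 members were at a Ct of at most 32, against 5 in the deposited set, although fewer microRNAs were in all, 446 against 515. Relative to the reference RNAs, the family was therefore near the NSC and ESC level in one set of MEF values and far above it in the other. Which set belongs to the MEF sample was not settled, and the check of MEF markers above used the deposited set alone. The deposited values are the ones reported here.

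**Figure D4:**
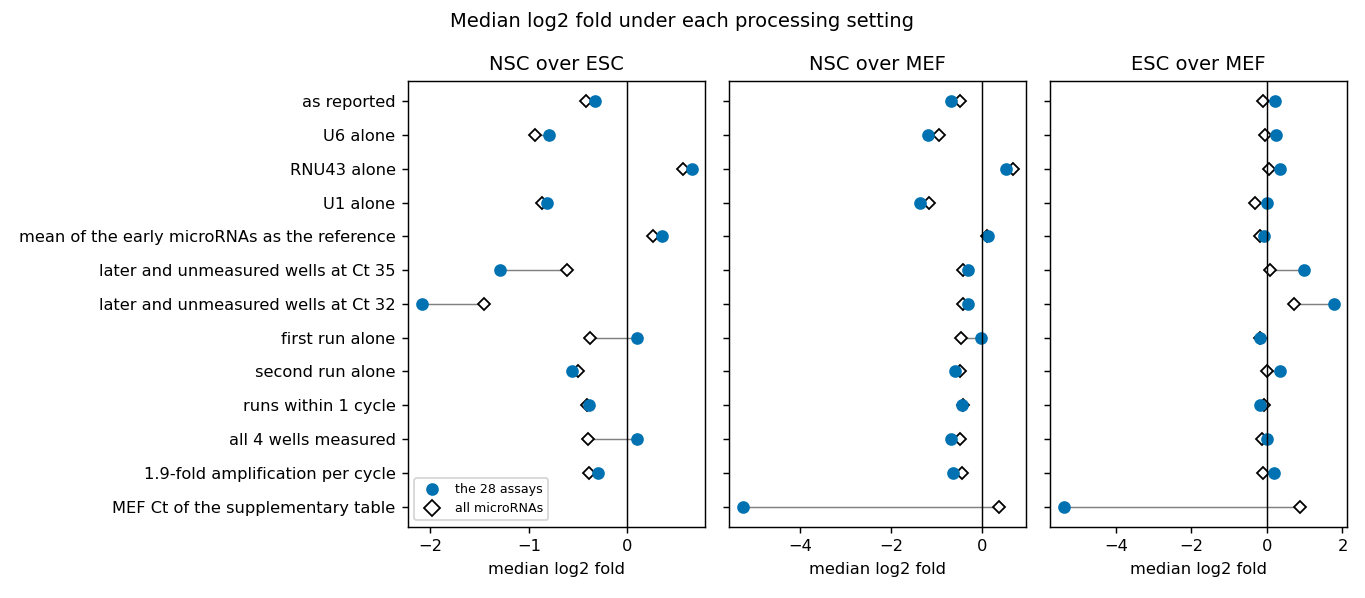
Median log2 fold of the 28 assays (filled circles) and of all microRNAs (open diamonds) in the 3 comparisons, as reported and under up to 12 other settings. With another reference RNA both symbols shift together, to 0.66 and 0.56 for NSCs over ESCs with RNU43 alone, whereas with the second set of MEF values the 28 assays move to -5.25 and -5.39 and all microRNAs stand at 0.36 and 0.86.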

How the data were processed

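The authors deposited, for each plate, the Ct of every well (cycles), a delta Ct per sample and a table of folds and p-values between cell types. That last table holds the authors' own comparisons and was not used. Total RNA was extracted with Qiagen kits and profiled with a System Biosciences assay set based on miRBase version 14. The sources used here do not give how a Ct was set. The deposited delta Ct equalled the one computed here except in ESCs on plate 1, where it was 6.90 cycles lower, so delta Ct was computed from the deposited Ct against the mean of U6, RNU43 and U1.

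Runs were averaged, a single measured run was used alone, and empty wells were left out. Amplification was taken as 2-fold per cycle. The error of a log2 fold joins in quadrature, over both samples, the SD of the runs over the square root of 2, or is from 1 sample where the other had 1 well. Any member could be named, and those with a Ct of at most 32 in a cell type, pairs of arms and assays of 1 sequence were given in full. The members and comparison lists were chosen with earlier results of these data known. The computation was tested on simulated data with every well measured, close runs and an early Ct in the sample with more RNA. The late Ct, empty wells and run gaps of these members were thus not covered. Alternatives were single reference RNAs, a reference from all microRNAs early (Ct up to 32) in all 3 samples, late wells set to 32 or 35, single runs, runs within 1 cycle, complete wells, 1.9-fold amplification, other Ct limits and the second set of MEF values. Python 3.11.15, pandas 2.3.3, numpy 2.4.6 and matplotlib 3.10.9 were used. Sequences and positions are those of RefSeq (GRCm38.p6).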

Additional observations from a re-analysis of the deposited data

How the results depend on the processing

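No paired analysis was possible because each cell type had 1 sample and its runs are technical repeats. Another reference shifts every assay of a plate by the same amount. For NSCs over ESCs, the median log2 fold of the members was -0.80 with U6 alone, -0.81 with U1 alone, 0.66 with RNU43 alone and 0.36 with the mean of the early microRNAs. It was -1.30 and -2.09 with later and empty wells set to Ct 35 and 32. With the first run alone it was 0.10, and 0.094 with all 4 wells measured. All microRNAs had medians of -0.94, -0.86, 0.56 and 0.26 with these references, in the same order. They stood at -0.61 and -1.46 at Ct 35 and 32, -0.38 with the first run and -0.40 with all 4 wells. Of 24 members, 2 were called with U6 or U1 alone and 0 with RNU43 alone or the early microRNAs. With a Ct limit of 35, 2 were called, and with later wells at Ct 32, 18 of 28. Of all microRNAs, 20.4%, 19.8%, 19.5% and 18.4% were called with U6, U1, RNU43 and the early microRNAs. The share was 22.1% with the limit of 35 and 29.3% at Ct 32. At a Ct set to 32, assays late in every well of both samples differ only by the shift of the reference RNAs, which holds for these 18 except miR-547, miR-470* and miR-743b-5p. Of these, miR-547 was called in the reported values too. With U6 or U1 alone the calls were miR-547 and miR-470. For NSCs over MEFs, the median was -1.19 with U6, -1.37 with U1, 0.52 with RNU43, 0.14 with the early microRNAs, -0.020 with the first run and -5.25 with the second set of MEF values. Medians of all microRNAs were -0.94, -1.16, 0.67, 0.098, -0.47 and 0.36 in that order. Called members were 2 with U6, U1 or the first run and 0 with the early microRNAs or Ct 32. A Ct limit of 35 gave 3 and the second MEF set 20. Of all microRNAs, 20.4%, 23.5% and 16.7% were called with U6, U1 and the first run. The shares were 13.7% with the early microRNAs, 12.7% at Ct 32, 17.7% with the limit of 35 and 19.5% with the second MEF set. With RNU43 alone the count of members remained 1 (16.1% of all microRNAs were called), but it was miR-465c-5p, higher in NSCs. For ESCs over MEFs, the median was -0.077 with the early microRNAs, 0.99 and 1.77 with wells set to Ct 35 and 32, -0.17 with the first run, -0.18 with runs within 1 cycle, -0.0044 with all 4 wells measured and -5.39 with the second MEF set. All microRNAs stood at -0.18, 0.079, 0.71, -0.18, -0.090, -0.12 and 0.86 in that order. Called members were 1 with U1, the early microRNAs or the second run, each time miR-743b-5p. A Ct limit of 35 gave 2 and the second MEF set 16. Of all microRNAs, 9.57%, 8.84% and 8.60% were called with U1, the early microRNAs and the second run. The share was 12.1% with the limit of 35 and 18.0% with the second MEF set. Members at or below the Ct limit were 1 in each sample at a limit of 30, and 18, 10 and 18 in NSCs, ESCs and MEFs at 35. The shares of all assays were 42.9%, 32.4% and 48.2% at 30, and 87.7%, 81.7% and 90.8% at 35. Among named members, miR-470 turned for NSCs over MEFs with RNU43 (0.52) and the early microRNAs (0.14), and for ESCs over MEFs with the second MEF set (-0.52). At Ct 32, miR-470* turned for ESCs over MEFs (0.12) and miR-871 for NSCs over ESCs (-0.10) and ESCs over MEFs (0.90). In each of these the setting moved the ESC wells earlier and left the wells of the other sample unchanged. With the second MEF set miR-871 turned for NSCs over MEFs (-1.68). The 1.9-fold amplification changed no count and no direction of a median. The causes of the other changes were not tested. In the deposited values most members lay above a Ct of 32, where wells are empty or runs lie far apart, and this limits their folds.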
